A study of Mus musculus with 140 samples.

Results

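Cytosolic ribosomal protein genes encode the proteins that are built, together with ribosomal RNA, into the small and large subunits of the ribosome. They were taken here as the protein-coding genes whose GRCm38 symbol is Rps or Rpl followed by a number and at most letters after it, with no further digit, together with Rpsa and the stalk genes Rplp0, Rplp1 and Rplp2. The Rps6k kinases and the Mrp genes of the mitochondrial ribosome were left out. The deposited tables list 11461 genes, and 79 of them met the rule, 32 of the small and 47 of the large subunit. Rpl10l, Rpl36al and Rpl39l also meet the rule and were not analysed here, which makes 82 genes in the annotation.

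Cells hold these proteins in near equal amounts in each ribosome, and their mRNAs are among the most abundant of most tissues. The mRNAs typically begin with a short stretch of pyrimidines, the 5′ terminal oligopyrimidine tract, through which the kinase complex mTORC1 and the binding protein LARP1 control their translation without needing a change in mRNA level. In striated muscle the gene Rpl3l encodes a muscle form of the large-subunit protein that Rpl3 encodes elsewhere.

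RNA came from the gastrocnemius muscle of the calf of male C57B6/J mice aged 10 to 11 weeks for which the labels name no engineered allele. The exercised mice ran for 1 h on a treadmill and the sham mice spent that hour on a stationary one, either in the early rest phase from ZT3 or in the early active phase from ZT15, where lights were on from ZT0 for 12 h. Muscle was taken at once or 4, 8, 12, 16 or 20 h later, with food and water freely available in between, which gave 24 groups of phase, treatment and hour. Of these, 18 held 6 libraries, 5 held 5 and 1 held 4, which made 34 libraries each of rest-phase sham, rest-phase exercise and active-phase exercise and 35 of active-phase sham. Each library was made from total RNA after removal of ribosomal RNA.

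Levels below are the deposited values, which are reads relative to a library size that the authors had scaled, and changes are differences of log2(value + 0.5). A gene passed when its limma p, adjusted by the Benjamini-Hochberg method over all 11461 genes of a comparison, was under 0.05. Recovered depth lay between 2.19 and 27.6 M reads, and the median library had 11.0 M. All 12 myofibre markers were measured, with a summed level of at least 79922 in each library. No pair of libraries was identical. None of the 79 genes was listed at 0 in any library, and 77 had a mean value of at least 5.

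The starts of these genes are shown first because the pyrimidine tract is the feature by which this mRNA class is known. RefSeq (GRCm38.p6) gives a window around the start of transcription for 59 of the 79 genes. Each line below holds 30 bases, 15 before the start and 15 from it onward, read 5′ to 3′ on the gene's strand, with the longest run of C and T in capitals. Rps6, Rps27, Rpl28, Rpl38 and Rplp2 are genes with a long run at the start. Of the genes printed, Rpl3l, Rpl4, Rps26 and Rpl28 follow the other members less closely in these libraries, and Rpl3l, Rps4x and Rps3 have no long run here.
Rps6 (chr4:86857353-86857382, minus strand): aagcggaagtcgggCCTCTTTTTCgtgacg
Rps27 (chr3:90213634-90213663, minus strand): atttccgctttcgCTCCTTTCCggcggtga
Rpl28 (chr7:4792950-4792979, plus strand): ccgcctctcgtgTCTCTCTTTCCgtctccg
Rpl38 (chr11:114668565-114668594, plus strand): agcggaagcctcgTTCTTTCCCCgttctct
Rplp2 (chr7:141447636-141447665, plus strand): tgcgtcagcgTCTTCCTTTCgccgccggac
Rps26 (chr10:128626492-128626521, minus strand): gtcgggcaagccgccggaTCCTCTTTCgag
Rpl4 (chr9:64173372-64173401, plus strand): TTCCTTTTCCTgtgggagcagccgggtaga
Rpl3l (chr17:24727811-24727840, plus strand): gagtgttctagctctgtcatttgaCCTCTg
Rps4x (chrX:102189377-102189406, minus strand): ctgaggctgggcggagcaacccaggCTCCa
Rps3 (chr7:99483695-99483724, minus strand): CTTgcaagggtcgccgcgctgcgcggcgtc

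A run of at least 8 pyrimidines lay in this 30-base window in 24 of the 59 genes, or 40.7%, against 12% of 32817 windows of all annotated starts. On the other strand such a run was present in 3.39% of the 59 and in 13.3% of all windows. The first 5 transcribed bases were all C or T in 27.1% of the ribosomal protein genes and in 4.43% of all starts. In the longer window of 300 bases, from 250 before to 50 after the start and on either strand, CCGGAAG was present in 39% of the 59 against 8.86% of all windows. TCTCGCG was present in 20.3% against 2.55%, AAGATGG in 13.6% against 6.34%, and TATAAA in 8.47% against 13.6%. CCGGAAG and AAGATGG can overlap at the letters AAG. The RefSeq start of the genes printed above lies between 3 bases (Rps27, Rps4x) and 281 bases (Rplp2) from the start in the gene annotation used for names, so a run that is absent here may lie at another start. Genes with and without the pyrimidine run followed the other members about equally, with a median r of 0.981 over 24 genes and 0.982 over 35, given as a description.

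The 79 genes lie on 19 chromosomes, 14 of them on chromosome 7 and 8 on chromosome 9. Their transcripts are short. The median coding transcript measures 914 bases, against 3248.5 over 10801 protein-coding genes in the tables, and the median GC content is 51.8% against 49.9%. Small nucleolar RNA genes lie inside 29 of the members, 56 in all, and 59 members have named pseudogenes elsewhere in the genome, 291 in all. How reads that fit both a gene and its copies were counted is not given in the sources used here, so the level of a member with near-identical copies is uncertain.

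Per kb of merged exon the highest mean levels over all libraries were those of Rplp1 at 2019.8 per kb, Rpl36 at 1882 per kb and Rplp0 at 1262 per kb. Per kb of the longest coding transcript the order differed, with Rps12 at 2809 per kb and Rps27 at 2506 per kb ahead of Rplp1, and Rplp0 in place 10. Rplp0 and Rplp1 encode proteins of the acidic stalk, which recruits translation factors to the large subunit. The lowest were Rpl24 at 4.18 per kb, the retrogene Rps27rt at 8.53 per kb and Rpl13a at 11.1 per kb. Named pseudogenes number 0 for Rpl24 and Rps27rt and 1 for Rpl13a. Whether these low values reflect the mRNA level or the way reads were counted was not tested. The muscle form Rpl3l, at 149.7 per kb of merged exon, stood above its general counterpart Rpl3, at 42.1 per kb, and per kb of coding transcript the values were 179 and 99.03. Rps27, which encodes a zinc-binding protein of the small subunit, stood at 1100.3 per kb and its close relative Rps27l at 511 per kb. Rps6, the small-subunit protein that S6 kinases phosphorylate, stood at 204 per kb, and Rpsa, also known as a laminin receptor, at 362 per kb. Together the 79 genes made up 4.85% of the summed value of a library at the median, from 1.44% to 6.68%.

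The genes moved up and down together from library to library. The mean of their log2 deviations from their own averages, called the shared level below, ran from -2.10 to 1.18 over all libraries, a 9.68-fold range. Of its variance 79.9% lay between libraries of the same group. The mean pairwise r between members was 0.913, both over all libraries and within groups, and the means of the small and large subunit genes followed each other with r = 0.997. The same mean pairwise r was 0.661 for 77 mitochondrial ribosomal protein genes, 0.616 for 79 oxidative phosphorylation genes and 0.456 for 38 proteasome genes. The mean levels of these lists, in the same order, followed the shared level with r of 0.94, 0.97 and 0.86. These values describe the same libraries, and the differences between lists were not tested.

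**Figure D1:**
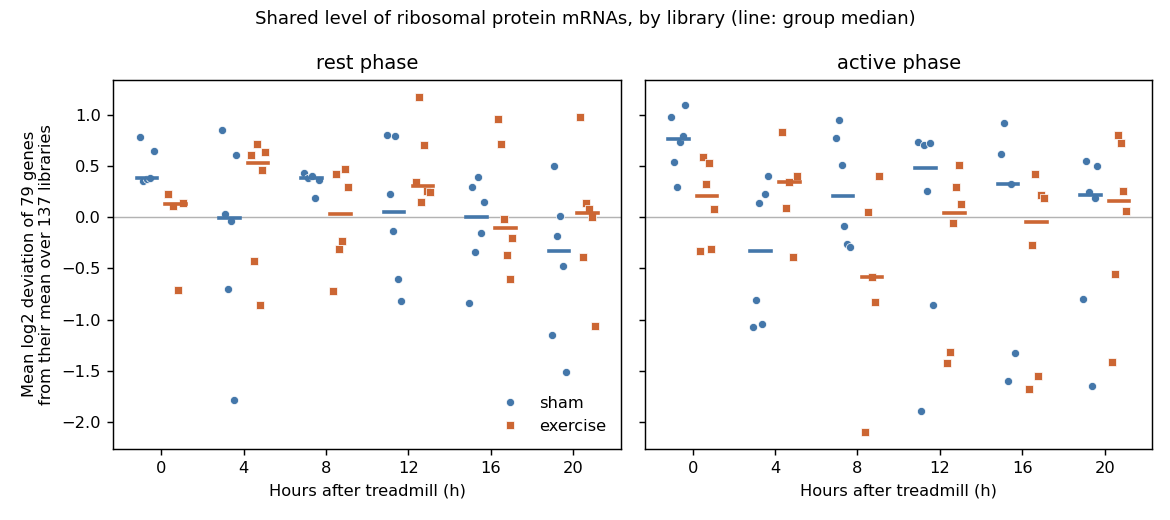
Shared level of the 79 ribosomal protein mRNAs in each library (y axis, mean log2 deviation) by hours after the treadmill (x axis), with sham as circles, exercise as squares and the group median as a line. In most groups libraries spread over more than 1 log2 unit, and 16 libraries lie below -1.

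Of the 16 libraries with a shared level under -1, 3 were rest-phase sham, 1 was rest-phase exercise, 6 were active-phase sham and 6 were active-phase exercise. The lowest was active-phase exercise at 8 h, replicate 1, at -2.10, followed by active-phase sham at 12 h, replicate 2, at -1.89. These 16 libraries had between 10.9 and 27.6 M reads. Within bulk muscle RNA, fewer cells of a type and less RNA per cell cannot be told apart.

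The shared level moved with a property of the library as a whole. Each library was given a length slope, the slope over protein-coding genes outside the ribosomal set of the log2 deviation on log2 exon length. A higher slope means that long transcripts were relatively more abundant in that library. The slope ran from -0.29 to 0.40 per doubling of length, and the shared level fell along it, with r = -0.84 and rho = -0.74 over all libraries, r = -0.82 without the 2 libraries at the extremes of the slope and r = -0.82 within groups. All 16 libraries with a shared level under -1 had a slope between 0.21 and 0.40. The corresponding slope on GC content gave r = -0.93, and log2 of the recovered reads r = -0.64. Within groups the length slope accounted for 67.9% of the variance of the shared level, and both slopes together for 86.99%. All these measures come from the same libraries, and what makes the slopes differ was not tested.

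**Figure D2:**
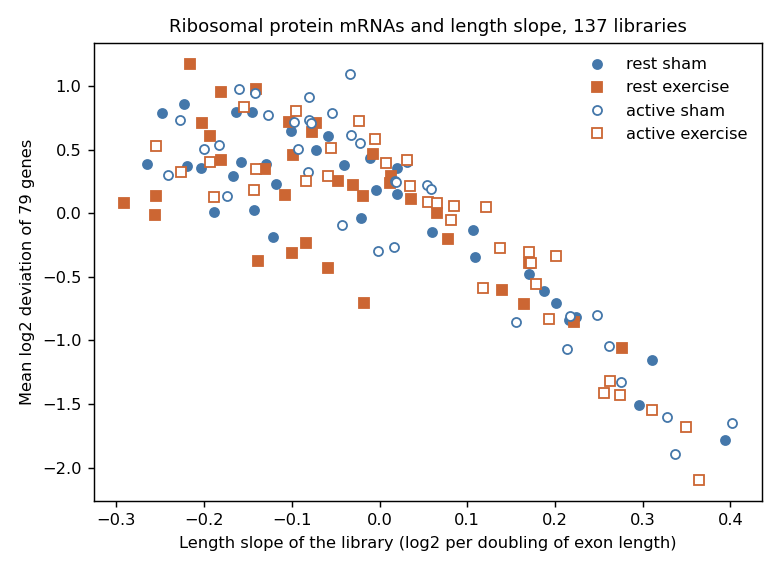
Shared level of the 79 genes (y axis, mean log2 deviation) against the length slope of the library (x axis, log2 per doubling of exon length), 1 point per library, by phase and treatment. The lowest shared levels, down to -2.10, occur at the highest slopes, and libraries of all 4 series lie along the same band (r = -0.84).

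With the length slope removed within groups, the mean pairwise r of the members was 0.772, against 0.274 for oxidative phosphorylation, 0.159 for mitochondrial ribosomal proteins and 0.081 for the proteasome. With the GC slope removed as well it was 0.680, against 0.314, 0.131 and 0.111. Rpl10a of the large and Rps3 of the small subunit were among the genes that followed the mean of the other 78 most closely, with r of 0.997 and 0.995. In all, 70 of the 79 genes had an r above 0.9.

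A small number of members followed the rest less closely. Rpl3l had the lowest r with the others at 0.54, and low values were also those of Rpl4 at 0.75, Rpl29 at 0.80 and Rps27rt at 0.83. Within groups and with the length slope removed, Rpl3l had an r of -0.21 with the other members and Rpl4 one of 0.12. In the same setting the values were 0.35 for Rpl29, 0.37 for Rpl28, 0.40 for Rps26 and 0.44 for Rps2, and 72 of the 79 genes had 0.72 or more. Rpl3l was also the steadiest in level, with an SD of 0.22 log2 units over all libraries against a median of 0.79 over members. Its value ran from 172 to 339, with a mean of 246 ± 37.2 (SD over all libraries), whereas Rpl3 ran from 38.4 to 274, with a mean of 133.8 ± 52.6. Rps27rt, with a mean value of 3.19, and Rpl24, with 4.30, are the 2 members whose mean value is under 5, and their correlations rest on few reads.

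**Figure D3:**
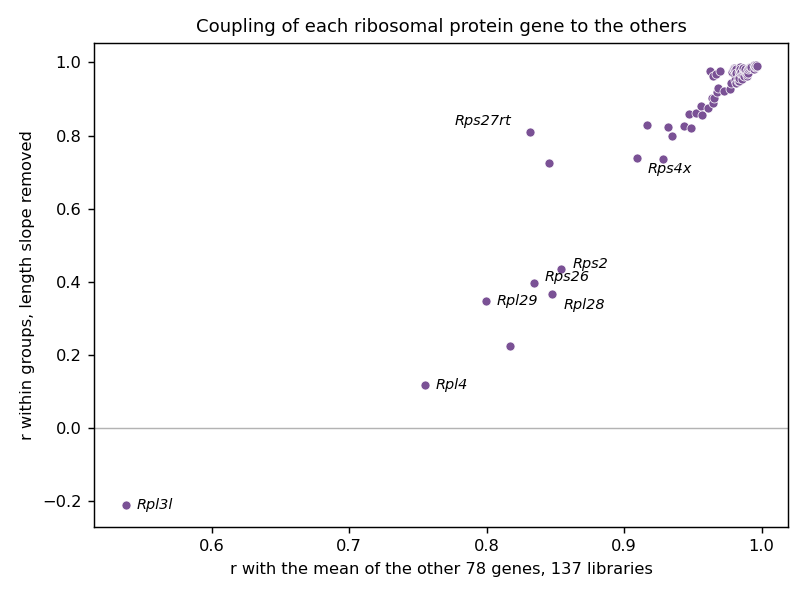
For each of the 79 genes, r with the mean of the other members over all libraries (x axis) and r within groups after removal of the length slope (y axis). Rpl3l (0.54 and -0.21) and Rpl4 (0.75 and 0.12) stand farthest from the cluster near 1.

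The genes Rack1, Fau, Rps3a1 and Rpl22l1 also encode ribosomal proteins or a close relative of one, but their symbols lie outside the rule. They followed the shared level with r of 0.98, 0.99, 0.98 and 0.97.

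The treadmill groups were set against their sham groups hour by hour. Directly after rest-phase exercise the 79 genes were all lower than in sham mice, with a median log2 change of -0.59 and a range from -0.82 to -0.01, but none passed by limma, edgeR or DESeq2, and none had an unadjusted limma p under 0.05, where 15% of all genes did. The median over all genes was 0.01. It was -0.50 for the oxidative phosphorylation genes, -0.42 for the mitochondrial ribosomal protein genes and -0.24 for the proteasome genes. At this hour 0.349% of all genes passed. The shared level was 0.79, 0.36, 0.37, 0.38 and 0.65 in the 5 sham libraries and 0.23, 0.11, -0.71 and 0.14 in the 4 exercised ones, so the groups did not overlap. For 39 of the 79 genes each exercised library was below each sham library, against 23.8% of all genes whose groups did not overlap in either direction.

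Rpl3, whose protein reaches toward the peptidyl transferase centre, had values of 182, 185, 158, 163 and 171 in rest-phase sham mice at 0 h and 128.8, 113.8, 83.3 and 108.5 after exercise. No exercised library reached a sham library. Its change was -0.67 ± 0.42 (SE), with an unadjusted limma p of 0.11 and an adjusted p of 0.40. The stalk gene Rplp0 had values of 3413, 3084, 3056, 2582 and 2946 in sham and 2403, 1919.9, 1332 and 2072 in exercised mice, again without overlap, and a change of -0.67 ± 0.50. Rps27 had values of 1744, 1454, 1225, 1309 and 1560.3 in sham and 1217, 1123, 441 and 853 after exercise. The groups of Rps27 did not overlap either, and its change was -0.77 ± 0.58. Rpl3l had values of 289.7, 259, 283, 259 and 281 in sham and 233, 251, 297 and 318 in exercised mice. Its groups overlapped fully, with a change of -0.01 ± 0.14.

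Among other genes named for their roles, Rpl5 and Rpl11, whose proteins bind the p53 regulator MDM2, were at -0.69 ± 0.56 and -0.56 ± 0.52. Rps27a, which encodes a fusion of ubiquitin with a small-subunit protein, was at -0.71 ± 0.54. Rpl38 and Rpl10a, linked to translation of selected mRNAs, were at -0.57 ± 0.51 and -0.58 ± 0.51, and Rps25 at -0.66 ± 0.58. Among these 6 genes the groups did not overlap for Rpl5 and Rps27a, and overlapped for the other 4.

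The SE of this comparison draws on the spread within all 24 groups, and the SD of the shared level was 0.20 in rest-phase sham mice at 0 h but reached 1.165 in active-phase sham mice at 16 h. Fitted on these 9 libraries alone, 54 of the 79 genes passed, all lower, in a fit where 31.9% of all genes passed. The length slope also differed between the groups, from -0.25 to -0.10 in sham and from -0.03 to 0.04 in exercised libraries. With the length slope as a term the median change was 0.04, 56 genes were above 0 and 23 below, and none passed, where 0.506% of all genes did. In that fit Rps2, at 0.22 ± 0.14, had the smallest p of the members, at an unadjusted 0.11. With a GC slope added as well the median of the members was 0.21. The part of the length slope in the difference was not tested beyond this fit.

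Markers of some other cells also differed in the same libraries. The summed level of 5 of 5 erythroid markers, haemoglobin genes and Alas2, ran from 970.4 to 1367 in rest-phase sham mice at 0 h and from 485 to 823 after exercise. For 7 of 7 macrophage markers it ran from 396 to 487 and from 256 to 302. Neither pair of groups overlapped. The sum of 5 of 5 adipocyte markers ran from 484 to 989.9 and from 359 to 595, with overlap. Over all libraries the log2 erythroid sum followed the shared level of ribosomal protein mRNAs with r = 0.94, the macrophage sum with r = 0.83, the adipocyte sum with r = 0.72, the myofibre sum with r = 0.31, the fibroblast sum with r = -0.13, the Schwann cell sum with r = -0.45 and the endothelial sum with r = -0.69. Their part in the ribosomal protein values was not tested. Of the neutrophil list no gene was measured, and of the satellite cell list Chodl alone.

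Directly after active-phase exercise the 79 genes were again all lower, with a median of -0.63 and a range from -0.76 to -0.14. None passed, at an hour where 1.18% of all genes did, and edgeR and DESeq2 on the recovered reads called none either. The median was -0.53 for the oxidative phosphorylation genes, -0.43 for the mitochondrial ribosomal protein genes and -0.29 for the proteasome genes. Rpl3 ran from 158 to 216 with a median of 163 in 6 sham mice, and from 70.2 to 152 with a median of 118.6 in 6 exercised mice. It was the 1 member whose groups did not overlap, against 2.2% of all genes, and its change was -0.63 ± 0.36. Rpl30 had the smallest p, with a change of -0.63 ± 0.30, an unadjusted p of 0.042 and an adjusted p of 0.22. It was the 1 member with an unadjusted p under 0.05, against 21.7% of all genes. With the length term the median was -0.09 and no member passed, where 1.75% of all genes did. With the GC slope added as well the median was 0.32.

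At the later hours after rest-phase exercise the medians at 4, 8, 12, 16 and 20 h were 0.39, -0.41, 0.48, 0.16 and 0.45, with a median SE of 0.44 to 0.46. No member passed at any of these hours, where 0.0175%, 0.00873%, 0.0524%, 0% and 0% of all genes passed. At 12 h Rps27rt, at 0.88 ± 0.43, was the 1 member with an unadjusted p under 0.05. The share of all genes with such a p was 2.93%, 2.13%, 6.04%, 1.68% and 1.79% at these hours. After adding the length term the medians were 0.04, -0.38, 0.06, -0.10 and 0.08, and again none passed, where 0.096%, 0.00873%, 0.131%, 0% and 0.0349% of all genes did. The 8 h median moved little with the length term alone, but was -0.16 with the GC slope added as well. With the length term alone Rpl7 and Rpl3 had the smallest p at 8 h, at -0.38 ± 0.17 and -0.41 ± 0.18, both with an adjusted p of 0.81. They were the 2 members with an unadjusted p under 0.05 in that fit, or 2.53%, against 5.44% of all genes.

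After active-phase exercise the medians at the same later hours were 0.65, -0.92, -0.27, -0.23 and 0.15. No member passed, where 0.0175%, 0%, 0.00873%, 0% and 0% of all genes passed. The unadjusted p was under 0.05 for 0, 43, 0, 0 and 0 members, and for 6.86%, 24.5%, 3.33%, 0.89% and 0.838% of all genes. Given the length term they were 0.23, -0.15, -0.23, -0.10 and -0.03, and none passed, where 0.0524%, 0.00873%, 0.0175%, 0% and 0% of all genes did. At 4 h Rps16, a small-subunit gene, had the smallest p, at 0.97 ± 0.52, with values of 493.01, 233, 266, 164 and 386 after exercise and a range of 57.04 to 336 with a median of 154 in sham. With the GC slope added to the length slope the medians from 4 to 20 h were -0.11, -0.04, 0.07, 0.09 and 0.03. Against the fit without either slope the sign turned at 4, 12 and 16 h, and against the length term alone at 20 h as well.

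**Figure D4:**
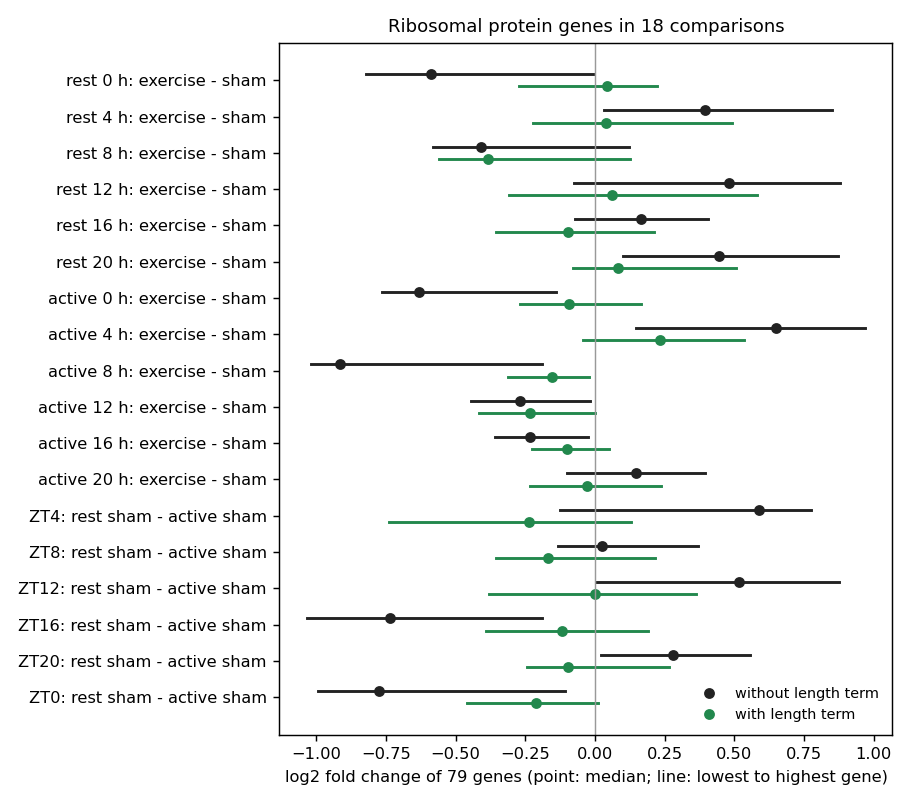
Median log2 change of the 79 genes (points) with the lowest and highest gene (line ends) in 12 comparisons of exercise with sham and 6 of rest-phase with active-phase sham, without (black) and with (green) the length term. The medians span -0.92 to 0.65 without the term and -0.38 to 0.23 with it.

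The largest median was that at 8 h after active-phase exercise. All 79 genes were lower, 43 of them with an unadjusted p under 0.05, or 54.4%, against 24.5% of all genes at that level. The smallest adjusted p of a member was 0.20. At this hour the median was -0.72 for the oxidative phosphorylation genes, -0.60 for the mitochondrial ribosomal protein genes and -0.47 for the proteasome genes. Rpl4, whose protein lines the exit tunnel, had values of 283, 365, 370.0, 295 and 486 after exercise and ran from 498 to 718 with a median of 559.9 in 6 sham mice. It was the 1 member without overlap, against 1.22% of all genes, with a change of -0.72 ± 0.25 and an unadjusted p of 0.0042. Rps4x, the X-linked small-subunit gene, had values of 177, 361, 223, 193 and 340.2 against a sham range of 358 to 546 with a median of 372. Its change was -0.74 ± 0.28, and 1 exercised library lay above the lowest sham library. Rpl29 changed by -0.61 ± 0.23.

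Rps6 had values of 69.3, 282, 181, 133.6 and 346 at that hour, against a sham range of 239 to 523 with a median of 328, so its groups overlapped widely. Rpl3l had values of 198, 203, 220.1, 219 and 247 against 230.1 to 264 with a median of 246. The shared level was -2.10, 0.05, -0.59, -0.83 and 0.40 in the exercised libraries and 0.77, 0.95, 0.51, -0.09, -0.26 and -0.30 in the sham libraries. The length slope was 0.36, 0.12, 0.12, 0.19 and -0.19 in the exercised libraries and ran from -0.20 to 0.02 in sham. Exercised replicate 6 was the highest of its group in the shared level and the lowest in the slope. Without that library 23 members passed, all lower, in a fit where 18.4% of all genes passed. Without replicate 6 of each group in the series 46 passed, where 28% of all genes did. With the length term all 79 genes remained below 0, at a median of -0.15, and Rpl4 was at -0.29 ± 0.13 with an adjusted p of 1.00.

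**Figure D5:**
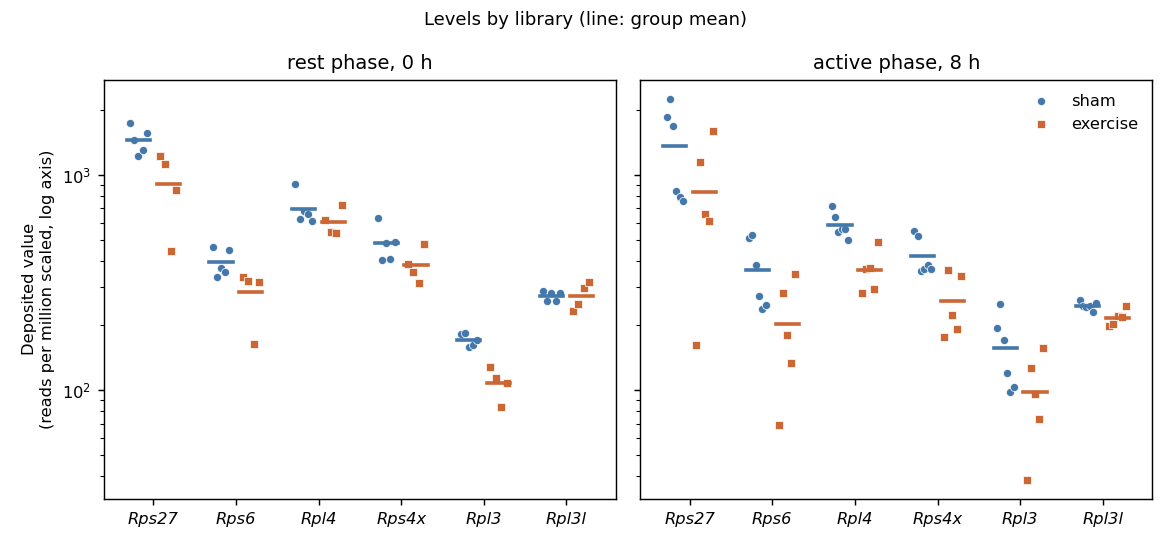
Deposited values (y axis, log scale) of 6 ribosomal protein genes in each library at 0 h in the rest phase and 8 h in the active phase, sham as circles, exercise as squares, group mean as a line. At 8 h the exercised values of Rpl4 (283 to 486) lie below the sham values (498 to 718), whereas those of Rpl3l overlap.

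At 8 h in the active phase the erythroid sum ran from 154 to 1304 after exercise and from 505 to 1483 in sham. The macrophage sum ran from 131.2 to 531 and from 228 to 638, and the endothelial sum from 127.8 to 235.4 and from 109.9 to 149. Their part was not tested.

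The effect of exercise was then compared between phases. The median difference, active minus rest, in order of hour from 0 to 20 h was -0.03, 0.26, -0.52, -0.75, -0.41 and -0.30, with a median SE between 0.62 and 0.67. No member passed at any hour or in the joint test over the 6 hours, and 0% of all genes passed in each of these 7 tests. At an unadjusted p under 0.05 there was 1 member, Rps27rt at 12 h, with -1.33 ± 0.61. Over all genes that share was 0.995%, 1.74%, 3.98%, 5.3%, 0.899% and 0.672% at the 6 hours. None passed either in the fit with the length term, where again 0% of all genes passed.

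The sham mice of the rest and active arms share their clock times, and at each they differ in the hours since standing on the treadmill and in the arm. The medians, rest arm minus active arm, were 0.59 at ZT4, 0.03 at ZT8, 0.52 at ZT12, -0.73 at ZT16, 0.28 at ZT20 and -0.77 at ZT0. No member passed, where 0.166%, 0.0175%, 0.0262%, 0.707%, 0.0175% and 0% of all genes did. At an unadjusted p under 0.05 the members numbered 3, 0, 5, 10, 0 and 13, against 22.3%, 2.61%, 9.52%, 17.6%, 2.93% and 10.9% of all genes. Once the length term was added the medians were -0.24, -0.17, 0.00, -0.12, -0.10 and -0.21, and none passed, where 0.166%, 0.0611%, 0.0611%, 1.33%, 0.0349% and 0% of all genes did. In the joint test over the 6 clock times 14 members had an unadjusted p under 0.05, against 24.1% of all genes, and none passed, where 0.768% of all genes did without the length term and 0.838% with it.

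The smallest p in these sham comparisons was that of Rpl3l at ZT16, where rest-arm mice were 12 h and active-arm mice 0 h from the treadmill. Rpl3l ran from 209 to 262 with a median of 239 in the rest arm and from 275 to 332 with a median of 297 in the active arm. The groups did not overlap, for this member alone, against 0.96% of all genes. The change was -0.35 ± 0.12 with an unadjusted p of 0.0037 and an adjusted p of 0.14. With the length term it was -0.22 ± 0.09, with an adjusted p of 0.26. Rps9 and Rpl8 followed at -1.0 ± 0.42 and -0.75 ± 0.32. The summed level of the 12 myofibre markers at ZT16 also differed between the sham arms. It ran from 79922 to 107820 with a median of 101440 in the rest arm. In the active arm it ran from 103600 to 171440 with a median of 135150. The part of this difference in the Rpl3l values was not tested.

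Rpl3l also had the smallest p of the members for a daily rhythm in the active arm. In active-phase sham mice sampled directly after the treadmill its mean value was 299.8 ± 22.3 (SD, n = 6), the highest of the 6 hours. The means at the following hours, in order, were 245 ± 52.5, 247 ± 11.3, 236 ± 26.04, 216 ± 26.4 (n = 5) and 216 ± 26.8. The fitted cosine of 24 h period had an amplitude of 0.15 log2 units and a peak at ZT18.9, with an unadjusted p of 0.020 and an adjusted p of 0.26. In active-phase exercised mice the amplitude was 0.16 with a peak at ZT17.9, an unadjusted p of 0.011 and an adjusted p of 0.16. Within a series the clock time and the hours since the treadmill cannot be told apart. In the rest arm the amplitude of Rpl3l was 0.03 in sham and 0.01 in exercised mice.

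No member passed for rhythm in the 4 series without the length term, where 0.942% of all genes passed in rest-phase sham, 2.48% in active-phase sham, 1.65% in rest-phase exercise and 4% in active-phase exercise. The members with an unadjusted p under 0.05 numbered 0, 1, 1 and 5, or 0%, 1.27%, 1.27% and 6.33%, against 9.57%, 12.6%, 10.8% and 14% of all genes. The member in rest-phase exercise was Rps27rt, with an amplitude of 0.54 log2 units at a mean value of 3.19. The median amplitudes of the 79 genes were 0.22, 0.21, 0.18 and 0.37 in the same order. With the length term none passed either, where 3.32%, 6.77%, 5.73% and 8.86% of all genes did, and 7, 1, 2 and 6 members had an unadjusted p under 0.05, or 8.86%, 1.27%, 2.53% and 7.59%, against 16.7%, 21.7%, 20.3% and 21.6% of all genes. Among the smaller adjusted p values were then 0.096 for Rps27rt in rest-phase exercise, 0.091 for Rpl23 in rest-phase sham, 0.16 for Rpl3l in active-phase sham, and 0.098 for Rps4x and for Rpl3l in active-phase exercise. The change of rhythm with exercise gave no member in either arm, where 0% of all genes passed without the length term, and 0% in the rest arm and 0.0175% in the active arm with it.

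The ratio of the muscle form Rpl3l to Rpl3 was followed as the difference of log2 values per kb of exon. Over all libraries it ran from 0.72 to 3.32 with a median of 1.87, so on this scale Rpl3l was the higher of the pair in each library. Per kb of the longest coding transcript, a scale chosen after seeing the data, it ran from -0.26 to 2.35 with a median of 0.89, and Rpl3 was the higher in 7 libraries. At 0 h in the rest phase the ratio was 2.30 ± 0.43 (SD, n = 4) after exercise and 1.63 ± 0.13 (n = 5) in sham, with a two-sided exact permutation p of 0.016. At 8 h in the rest phase it was 2.10 ± 0.34 (n = 6) and 1.55 ± 0.32 (n = 5), with an exact p of 0.030. At 0 h in the active phase it was 2.23 ± 0.43 and 1.73 ± 0.24 (n = 6 each), with an exact p of 0.035. Adjusted over the 12 comparisons these 3 values were each 0.14, and the other 9 were 0.55 or higher, so none passed. The ratio itself followed the shared level with r = -0.86 and the length slope with r = 0.71. Rpl3, the divisor of the ratio, is also a member of the shared level and varied more than Rpl3l (SD 0.64 against 0.22 log2 units). A negative r with the shared level is therefore in part built in. For Rps27l over Rps27 no comparison passed, and the smallest adjusted p was 0.86.

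Genes of the pathways around the ribosome were counted from lists chosen by their known roles, and the counts are to be read against the share of all genes that passed. That share was 0.349% directly after rest-phase and 1.18% directly after active-phase exercise, and 0.506% and 1.75% with the length term. Of 46 genes of ribosome assembly and rRNA processing 1 rose directly after active-phase exercise, Noc3l, a nucleolar assembly factor, by 0.87 ± 0.20 (adjusted p = 0.0051 by limma). In rest-phase exercise at 0 h no gene of that list passed, and with the length term 1 rose, the RNA helicase gene Ddx21, by 0.51 ± 0.12 (adjusted p = 0.020). Of 25 genes of mTORC1 and its control of ribosomal protein mRNAs 1 rose at 0 h in the rest phase, Ddit4, an inhibitor of mTORC1, by 2.86 ± 0.44 (adjusted p = 5.3e-06 by limma). Between sham groups, rest arm minus active arm, Ddit4 differed by -3.79 ± 0.38 at ZT16 and by 1.95 ± 0.40 at ZT4. The adjusted p by limma was 3.4e-13 and 0.0056, where 0.707% and 0.166% of all genes passed. Both times Ddit4 was higher in the sham arm sampled directly after the treadmill hour. At 0 h in the active phase none of the 25 passed, and with the length term 3 rose, namely Rps6kb2, which encodes an S6 kinase, by 0.60 ± 0.16, Larp1 by 0.43 ± 0.12, and Tsc2. The median change of the 25 was 0.35 directly after rest-phase and 0.34 after active-phase exercise, and 0.20 and 0.09 with the length term.

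Among 19 translation factors and related genes of the same pyrimidine-tract class none passed at any hour after exercise. Their medians at 0 h were -0.33 for rest-phase and -0.30 for active-phase exercise, and 0.07 and -0.07 with the length term. In the sham comparison at ZT16, where 0.707% of all genes passed and 1.33% with the length term, the median was -0.63, 1 of the 19 passed, Nap1l1, at -0.71 ± 0.16 (adjusted p = 0.013 by limma), and with the length term 3 did, Nap1l1, Eef1d and Eif3l, all lower in the rest arm. Of 16 genes of RNA polymerase I and its factors none passed in any of the 12 exercise comparisons, with or without the term.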

How the data were processed

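Total RNA of mouse gastrocnemius was sequenced as stranded 100-bp paired reads after ribosomal RNA removal, per the labels' protocols. Alignment tools and counters are known from the submitters' processing notes, which list STAR 2.5.3a and featureCounts 1.5.2 on mm10/GRCm38, trimming by Trim Galore 0.4.3 and FastQC 0.11.5, and edgeR 3.2.23. Neither the strand setting nor the treatment of multi-mapping reads is stated there. The deposited values are a signal: reads relative to a library size scaled by the authors. Whole reads could be recovered from their steps within 0.05 read and were used for edgeR and DESeq2 only.

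Values were tested as log2(value + 0.5) with limma 3.58.1 (trend and robust options, R 4.3.3) in 1 model of 24 groups. Adjustment was that of Benjamini and Hochberg over 11461 genes within each comparison. Rhythm was a cosine and sine of 24 h period. The length slope entered as a covariate. Gene IDs were matched to GRCm38 symbols for 11449 of 11461. Alternatives were pseudocounts of 0.1 and 2, a mean value of at least 5, relative log expression scaling, coding length, edgeR 4.0.16, DESeq2 1.42.0, a replicate block, and leaving libraries out. The labels do not say in words that each sample is a separate mouse, so p-values measure the spread between these samples. The labels name no sequencing batch. Of 140 samples, rest-phase exercise at 0 h replicates 3 and 4 and rest-phase sham at 0 h replicate 3 were not analysed here. The members, lists and tests were chosen with earlier results of these data known. Genes were named by role, by the smallest p in each comparison, by level per kb and by correlation with the other members, and some genes that this rule picks are not reported here. Rpl4, Rps6 and Rps27 are shown by library as examples.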

Additional observations from a re-analysis of the deposited data

Results flagged for a closer look

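The shared level of the ribosomal protein mRNAs was -0.709 in rest-phase exercise at 0 h, replicate 5, where the nearest of the other 3 libraries of the group was at 0.112. The gap was 0.879 of the range of the group. This library had 25.7 M reads and a length slope of -0.0177. All 24 groups were examined in this way, and chance flags about 1 in 20 groups.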

How the results depend on the processing

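The number of ribosomal protein genes that passed was 0 for each of 25 tests as reported, and 0 in 507 of 529 alternative counts. Both scalings, the pseudocounts, the filter on low values, coding length, edgeR and the replicate block alone gave 0 throughout. The exceptions follow, and their cause was not tested. Fitted on their own libraries, 54 genes passed at 0 h after rest-phase exercise. At 8 h after active-phase exercise 46 passed without replicate 6, and 23 without the exercised replicate 6 alone, a setting chosen after seeing the data. For rhythm, the F test over 6 times called 1 gene in active-phase sham (Rpl3l), where 6.94% of all genes passed, DESeq2 called 1 in active-phase exercise (Rpl3l), where 4.93% did, and the replicate block with the length slope called 1 in rest-phase sham (Rpl23) and 1 in rest-phase exercise, where 4.19% and 7.65% did. Length and GC slopes together, chosen after seeing the data, called 2 genes in active-phase sham, 1 in rest-phase exercise and 12 in active-phase exercise, where 8.04%, 8.98% and 13.4% of all genes passed. Weights per library, also chosen after seeing the data, called 4, 40, 4, 70, 44 and 12 genes after exercise at 0 h and 20 h in the rest phase and at 0, 4, 8 and 16 h in the active phase, where 27.9%, 54.2%, 30.4%, 27.2%, 44.2% and 17.7% of all genes passed. They called 31 and 33 in sham at ZT20 and ZT0, 16 in the joint test of the phase difference, and 5, 1 and 13 for rhythm in rest-phase sham, rest-phase exercise and active-phase exercise, where 27.6%, 42.4%, 42.7%, 33.6%, 4.13% and 10% of all genes passed. Outside the 25 tests, weights per library also called at least 1 member in the phase difference at 8 h and at 20 h and in the joint sham test. There 14.8%, 36.3% and 57.1% of all genes passed. Of 392 medians under an alternative, 43 changed sign. Leaving out libraries moved the median at 0 h after rest-phase exercise between -0.71 and -0.37 and at 8 h after active-phase exercise between -1.31 and -0.42. It turned the sign at 4 h (-0.01 to 0.64) and 16 h (-0.17 to 0.34) after rest-phase exercise, at 12 h (-0.53 to 0.13), 16 h (-1.15 to 0.24) and 20 h (-0.32 to 0.39) after active-phase exercise, and in sham at ZT8 (-0.52 to 0.50). Same-numbered libraries did not all deviate together: over 66 pairs r ran from -0.753 to 0.89 with a median of 0.141, and 36 pairs exceeded 0.1. In 0 of 12 comparisons did each pair exceed 0.1, a rule that a weak pairing would also fail. The replicate numbers were not taken to pair samples, and the block alone gave 0 calls. Depth from 2.19 M reads limits the 2 members with a mean value under 5.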
